A study of Mus musculus with 2 samples.

Results

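The 6 genes described are Gimap1, Gimap4, Gimap5, Gimap6, Gimap8 and Gimap9, which encode GTPases of immunity-associated proteins, in single-cell RNA-seq of mouse lung. They are 6 of the 8 genes with a Gimap symbol among the 27998 genes in the files, and were picked by symbol for their level in endothelial cells, so that level is given here as a description. The study compared a KO library with a WT library, 1 of each, from lungs of 10 to 12 weeks old mice on the C57BL/6J strain, as a model of the vessel disease hereditary hemorrhagic telangiectasia type 2 (HHT2), in which arteries and veins join directly. The labels name neither the deleted gene, the allele, the number of animals per library nor the sex. Both libraries were made from fresh lungs dissociated with dispase and DNase, and cells were sorted for VE-cadherin, an endothelial junction protein, and against CD45, a protein of leukocytes. Because a group is 1 library, no comparison could be tested against replicates, and every interval given covers counting error only.

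GIMAP proteins are small GTP-binding proteins that sit on membranes such as those of lysosomes, the endoplasmic reticulum and vesicles. The genes lie together in 1 cluster and are best known from lymphocytes, where several of them are needed for cell survival in mice and rats. Endothelial cells are another site of expression, and mice that lack Gimap5 have lesions of liver vessels and sinusoids as well as few lymphocytes.

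The KO library held 2196 barcodes with 17864581 UMIs (unique molecular identifiers, each counted once per captured molecule), and the WT library 3482 barcodes with 25667220 UMIs. Filtering left 1314 KO and 2708 WT cells, of which 527 KO cells (40.1%) and 1544 WT cells (57.0%) formed 8 endothelial clusters, with median depths of 5062 UMIs in KO and 4208.5 UMIs in WT. Classes were named from marker genes and carry the ending "-like": general capillary (gCap-like) cells, aerocytes (aCap-like, the large thin alveolar capillary cells), venous-like, arterial-like and lymphatic-like cells. An endothelial cluster of 118 KO cells and 1 WT cell, led by Apln, Igfbp3 and Peg3, stayed unnamed and is called the KO-only cluster. Since nearly all its cells come from 1 library, a cell type and a trait of that library or of its animals cannot be told apart in it. The libraries also differed in sex-linked transcripts. Of the KO endothelial-like cells, 77 had Xist UMIs and no Y-linked UMIs and 270 had Y-linked UMIs and no Xist UMIs. In WT endothelial-like cells these numbers were 1383 and 0. Acvrl1, which encodes the BMP receptor known from this disease type, stood at 1266 CPM (counts per 1000000 UMIs of the class) in KO and 1304 CPM in WT gCap-like cells, and at 412 CPM in the KO-only cluster. A 3' tag does not show whether a gene was deleted elsewhere in its sequence. The libraries shared 12 barcodes, of which 6 remained among the cells kept.

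The windows of 250 bases upstream of the RefSeq starts (build GRCm38.p6) of 3 members are shown, because the members were high in the same classes of cells, and because the results turn on Gimap4 and Gimap5, whose levels differed between endothelial classes, and on Gimap6, the highest member. Capitals mark AGGAAG or its reverse complement CTTCCT, a core bound by ETS factors, which include the endothelial factors Erg and Fli1. The Gimap4 window lies at chr6:48684328-48684577 on the plus strand and the Gimap5 window at chr6:48745947-48746196 on the plus strand. The Gimap6 window lies at chr6:48708245-48708494 on the minus strand.
Gimap4: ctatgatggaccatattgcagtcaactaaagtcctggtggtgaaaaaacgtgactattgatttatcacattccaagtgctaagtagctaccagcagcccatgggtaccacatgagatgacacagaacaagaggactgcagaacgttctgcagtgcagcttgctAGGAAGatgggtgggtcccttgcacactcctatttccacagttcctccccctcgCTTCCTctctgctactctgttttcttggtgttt
Gimap5: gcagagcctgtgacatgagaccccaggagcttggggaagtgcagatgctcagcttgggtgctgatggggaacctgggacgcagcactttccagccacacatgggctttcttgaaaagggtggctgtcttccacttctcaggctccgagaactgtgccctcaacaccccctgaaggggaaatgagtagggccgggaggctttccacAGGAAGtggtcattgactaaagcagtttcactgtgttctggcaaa
Gimap6: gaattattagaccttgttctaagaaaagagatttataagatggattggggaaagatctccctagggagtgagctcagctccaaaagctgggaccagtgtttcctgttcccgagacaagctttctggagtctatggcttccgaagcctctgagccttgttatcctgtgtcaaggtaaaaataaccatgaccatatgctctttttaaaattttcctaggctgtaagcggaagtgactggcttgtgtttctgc
The Gimap4 window held the letters 2 times, starting 87 and 33 bases before the start, and the Gimap5 window 1 time, starting 45 bases before it. The Gimap6 window did not hold these exact letters, but held CGGAAG, which differs from AGGAAG in 1 letter. RefSeq gives the 6 members 7 windows, since Gimap8 has 2 starts, and 5 of the 7 held the letters on either strand, against 29.5% of 32851 promoter windows of the same length. CCACCC, a core of KLF factors, was in 4 of the 7 windows, against 28.1% of windows, and TGTGGT, a core of RUNX factors, in 2 of 7, against 14.0%. The letters AGATAA, known as a core for the factor Gata2 and its relatives, were in 0 of 7 windows, against 9.99% of windows. Those of a SMAD1/5 site, GGCGCC, were also in 0 of 7, against 9.59%, and those of an AP-1 site, TGACTCA, in 0 of 7, against 4.46%. No match overlapped a match of another motif. A match is a description of letters and not of binding. Only these exact letters were searched, so a window without a match may hold another form of a site.

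The members lie within 107 kb of chromosome 6 (GRCm38, 48647234 to 48754210, GENCODE M21), in the order Gimap8, Gimap9, Gimap4, Gimap6, Gimap1 and Gimap5. Gimap6 (48701582 to 48708225) is on the minus strand and the other 5 are on the plus strand. Genes within this stretch did not share 1 level. Gimap7, which lies between Gimap6 and Gimap1, had 2 UMIs in KO and 4 in WT endothelial-like cells. Gimap3, downstream of Gimap5 and known as a lymphocyte paralogue of Gimap5, had 0 UMIs in either library, and the readthrough gene Gm28053, whose exons overlap first and inner exons of Gimap7, Gimap1 and Gimap5, had 0 UMIs in KO and 2 in WT. Among neighbours, the lincRNA 4833403J16Rik just past Gimap5 stood at 41.1 CPM in KO and 39.7 CPM in WT endothelial-like cells, and at 0.391 and 0.793 CPM in KO and WT non-endothelial cells. Tmem176b, a membrane protein gene beyond Gimap3, stood at 453 CPM in KO and 519 CPM in WT endothelial-like cells, and unlike the members it was also high in non-endothelial cells, at 325 CPM in KO and 297 CPM in WT.

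**Figure D1:**
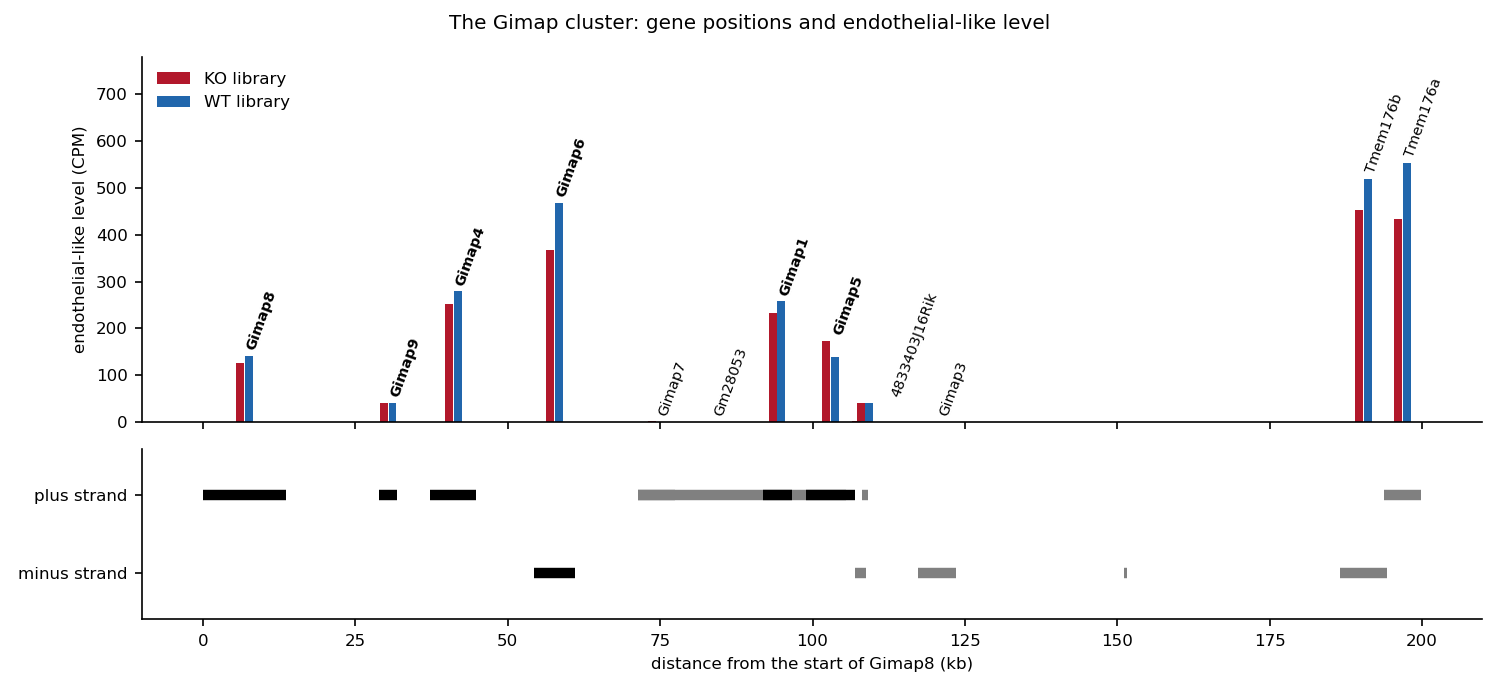
Endothelial-like level (CPM, bars, KO left of WT) of genes around the Gimap cluster, above their positions in kb from the start of Gimap8 (members in black, other genes in grey). The 6 members stand between 39.7 and 469 CPM, while Gimap7 and Gimap3, which lie in and beside the cluster, are near 0.

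All 6 members were far higher in endothelial-like than in other lung cells. Their summed level was 1192 CPM (1151 to 1234) in KO endothelial-like cells against 9.22 CPM in KO non-endothelial cells, and 1324 CPM (1296 to 1352) against 22.1 CPM in WT, ratios of 129 (108 to 157) in KO and 59.9 (54.0 to 66.8) in WT. All 6 of 6 were at least 1.5-fold higher with intervals apart in each library, where 47.9% of genes in KO and 50.7% in WT passed the same rule, and since the members were picked for this level nothing is read from the count. A low remainder was measured outside endothelium for the members, as for a gene that defines the sort. Cdh5, which encodes VE-cadherin, kept 0.240% of its endothelial level in KO and 0.673% in WT non-endothelial cells, and the 6 members together kept 0.773% and 1.67%. Pecam1 kept 0.456% in KO and 1.29% in WT, and 15 pan-endothelial genes together kept 0.887% and 1.57%. In alveolar type 2 (AT2-like) cells, the surfactant-making cells that remained after the sort, the sum was 8.07 CPM in KO and 17.2 CPM in WT.

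Leukocyte-like cells, few of which remained after the sort, did not hold the members at the endothelial level. These were myeloid in kind, with Tyrobp and Mrc1 among the top 10 genes of the larger cluster and S100a8 and S100a9 among those of the smaller. No T, NK or B cell marker was among these genes, so the values do not speak for lymphocytes. The 27 KO leukocyte-like cells had 1 UMI of the 6 genes in all, at 16.2 CPM, and the 90 WT cells had 27 UMIs, at 114 CPM. Conversely, leukocyte RNA in the endothelial-like cells was scarce. Of 13 leukocyte core markers, 10 were at 0 in KO and 6 in WT endothelial-like cells, Ptprc (the gene of CD45) among them in both, and the summed level was 8.51 CPM in KO and 2.24 CPM in WT. In KO, 17 of the 23 marker UMIs came from 2 of the 7 lymphatic-like cells. Without the 7 KO and 13 WT endothelial-like cells that had any such UMI, the log2 ratio of the summed Gimap level, KO over WT, was -0.15, as with them.

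**Figure D2:**
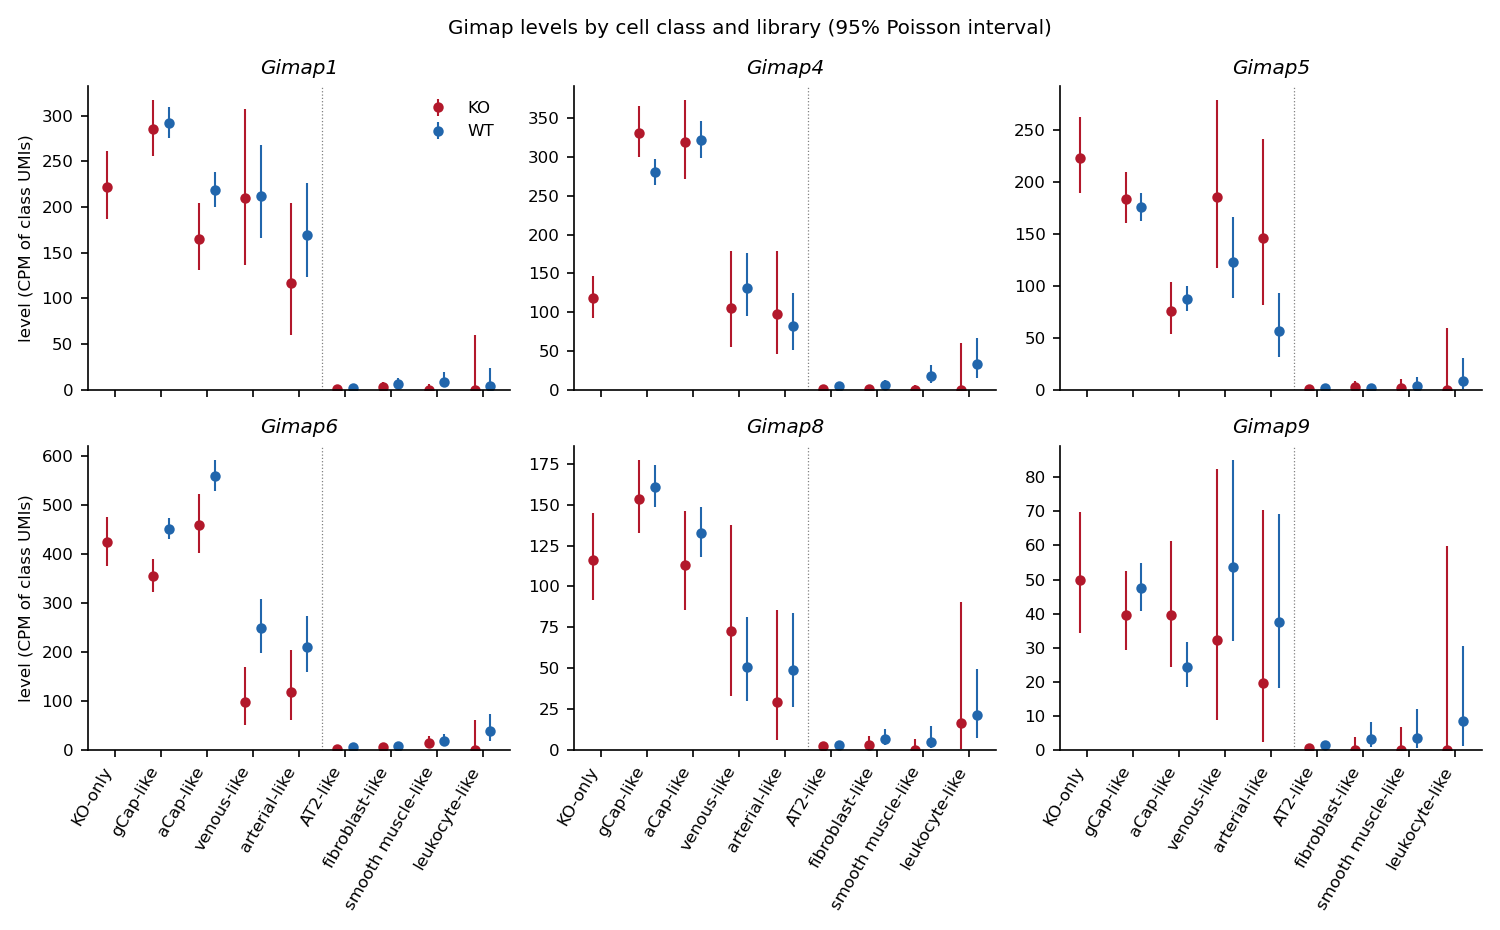
Level of each member (CPM, 95% Poisson intervals) by cell class in the KO library (red) and the WT library (blue); the dotted line parts endothelial from other classes. In each panel the endothelial classes stand above the others, and Gimap4 in the KO-only cluster is at 118 CPM, below gCap-like and aCap-like cells.

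Gimap6, whose protein binds the ATG8 protein GABARAPL2 and acts in autophagy, gave the highest level, at 368 CPM (346 to 392) in KO and 469 CPM (452 to 485) in WT endothelial-like cells (3' UMI counts need no scaling by transcript length). Gimap4, known from the death of T cells, stood at 253 CPM in KO and 279 CPM in WT, and Gimap1, needed for mature lymphocytes in mice, at 232 CPM in KO and 258 CPM in WT. Gimap5, whose loss in mice is described above, stood at 173 CPM in KO and 138 CPM in WT. Gimap8, the longest member protein, known from B cells in mice, stood at 125 CPM in KO and 141 CPM in WT. Gimap9 was the lowest, at 40.0 CPM in KO and 39.7 CPM in WT. Gimap6 was highest and Gimap9 lowest in both libraries. The intervals of Gimap4 and Gimap1 overlapped in each library, and those of Gimap5 and Gimap8 overlapped in WT but not in KO.

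Between the capillary classes, single members went different ways although the sum was close. In aCap-like cells the sum was 1172 CPM against 1349 CPM in gCap-like cells of KO, a ratio of 0.869 (0.790 to 0.955), and 1345 CPM against 1408 CPM in WT, a ratio of 0.955 (0.913 to 0.999). Gimap5 was lower in aCap-like cells, at 75.4 CPM (53.3 to 103) against 184 CPM (161 to 209) in gCap-like cells of KO, and at 87.2 CPM (75.4 to 100.2) against 175 CPM (162 to 189) in WT. The ratios were 0.410 (0.283 to 0.580) in KO and 0.497 (0.422 to 0.583) in WT, and the intervals of the levels did not overlap in either library. Gimap5 kept a lower call in all 11 alternatives that gave a value in KO and in all 12 in WT.

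Of the 6 members, 2 were lower by the 1.5-fold rule in aCap-like cells of KO, where 8.49% of genes were, and 2 in WT, where 12.5% were; none was higher, against 6.94% of genes in KO and 10.8% in WT. Besides Gimap5 these were Gimap1 in KO, at 165 CPM against 285 CPM, and Gimap9 in WT, at 24.3 CPM against 47.4 CPM. With cells thinned to 1500 UMIs each, the intervals of Gimap1 in KO overlapped (log2 ratio -0.90), as did those of Gimap9 in WT (log2 ratio -0.65). Gimap6 ran the other way, at 460 CPM in aCap-like against 356 CPM in gCap-like cells of KO and 560 CPM against 452 CPM in WT. Its ratios of 1.29 (1.10 to 1.52) in KO and 1.24 (1.15 to 1.33) in WT lay under 1.5. Of the 2 aCap-like clusters 1 was shallow, with a median of 1087 UMIs per cell, and leaving it out changed no call here. It was also less cleanly endothelial. Its AT2 markers summed to 7554 CPM in KO and 14724 CPM in WT, against 1954 CPM and 3966 CPM in the other aCap-like cluster. Its 15 pan-endothelial genes summed to 7077 CPM in KO and 11992 CPM in WT, against 27717 CPM and 25491 CPM.

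In larger vessels the summed level was lower than in gCap-like cells, though not each member was. The sum was 526 CPM (395 to 686) in 18 KO arterial-like cells and 605 CPM (516 to 707) in 54 WT arterial-like cells. In venous-like cells it was 701 CPM (561 to 865) in 14 KO cells and 819 CPM (725 to 922) in 51 WT cells. At the main settings Gimap4 was called lower in each case, with ratios to gCap-like cells of 0.294 and 0.316 in arterial-like and venous-like cells of KO, and of 0.296 and 0.470 in those of WT. By the 1.5-fold rule, 4 of 6 members were lower in arterial-like cells of KO and 5 of 6 in WT, and 0 were higher. Over all genes, 3.99% were lower and 4.94% higher there in KO, and 7.16% and 6.39% in WT. In venous-like cells 2 of 6 members were lower in KO and 3 of 6 in WT, and 0 were higher, where over all genes 5.38% were lower and 5.54% higher in KO and 11.9% and 8.85% in WT. The venous-like ratio of Gimap5 in KO was 1.01 and that of Gimap9 in WT was 1.13. These few cells limit the reading. At Leiden resolution 1.5, where the arterial-like class was drawn otherwise, the log2 ratio of the sum to gCap-like cells was -0.40 in KO and -0.18 in WT instead of -1.36 and -1.22, and neither was called. At that resolution Gimap1, Gimap4, Gimap5, Gimap6 and Gimap8 lost their calls in WT arterial-like cells, Gimap4 with a log2 ratio of -0.33 instead of -1.76. Gimap1, Gimap6 and Gimap8 lost theirs in KO. With cells thinned, the venous-like sum of KO lost its call (log2 ratio -0.57 instead of -0.94). Venous-like Gimap4 then lost its call in both libraries (-1.19 instead of -1.66 in KO, -0.70 instead of -1.09 in WT). So did Gimap6 in both and Gimap8 in WT.

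The next comparison set the KO library against the WT library. In all endothelial-like cells the summed ratio was 0.901 (0.865 to 0.938), in gCap-like cells 0.958 (0.907 to 1.01) and in aCap-like cells 0.872 (0.797 to 0.952). No member passed the 1.5-fold rule in any of these 3 comparisons. Over all genes, 3.86% were higher and 5.11% lower in all endothelial-like cells, 1.72% and 2.96% in gCap-like cells and 1.98% and 2.23% in aCap-like cells. The median log2 ratio of the 6 members was -0.14 in all endothelial-like, -0.05 in gCap-like and -0.22 in aCap-like cells, beside -0.06, -0.03 and -0.07 over all genes tested. In aCap-like cells with Xist UMIs and no Y-linked UMIs, only 10 of them KO, the summed log2 ratio was -0.92 and passed the rule, where it was -0.20 in all aCap-like cells. The shallow aCap-like cluster held 46 of the 115 KO and 67 of the 461 WT aCap-like cells. Without that cluster the summed log2 ratio was -0.12 (-0.26 to 0.011).

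Gimap6 and Gimap1 had ratios below 1 in each of the 4 named classes that could be compared. For Gimap1 these were 0.976 in gCap-like, 0.753 in aCap-like, 0.691 in arterial-like and 0.987 in venous-like cells, and none was called. In gCap-like cells Gimap6 stood at 356 CPM (323 to 390) in KO and 452 CPM (431 to 474) in WT, a ratio of 0.787 (0.707 to 0.874). The intervals did not overlap, but the ratio was short of 1.5-fold. In aCap-like cells it stood at 460 CPM in KO and 560 CPM in WT, a ratio of 0.822 (0.711 to 0.946), which passed the rule with cells thinned (log2 ratio -0.63). In arterial-like cells the values were 117 CPM in KO and 211 CPM in WT, from 12 and 56 UMIs, a ratio of 0.555 (0.271 to 1.05). In venous-like cells they were 96.7 CPM in KO and 248 CPM in WT, from 12 and 83 UMIs, a ratio of 0.390 (0.194 to 0.718). The venous-like ratio was the 1 call among 6 members, where 1.04% of genes were lower and 1.34% higher. It lost the call under a stricter cell filter of 1000 genes and 5% mitochondrial UMIs (log2 ratio -1.26) and with cells thinned (-0.92).

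The ratios of Gimap4 and Gimap5 depended on whether the KO-only cluster was counted. Gimap4 was at 253 CPM in KO and 279 CPM in WT over all endothelial-like cells, a ratio of 0.907 (0.830 to 0.991), but without that cluster it was at 297 CPM in KO and 279 CPM in WT, a ratio of 1.07 (0.970 to 1.17). Without the cluster 0 of 6 members were called, where 2.3% of genes were higher and 3.55% lower. In gCap-like cells Gimap4 stood at 331 CPM (300 to 365) in KO and 280.0 CPM (263 to 297) in WT, a ratio of 1.18 (1.05 to 1.33), which was below 1 at Leiden resolution 0.5 (log2 ratio -0.14). Gimap5 had a ratio of 1.26 (1.12 to 1.41) over all endothelial-like cells, 1.14 (0.999 to 1.29) without the KO-only cluster and 1.05 (0.898 to 1.22) in gCap-like cells. Among cells with Xist UMIs and no Y-linked UMIs, most of which in KO were in the KO-only cluster (57 of 77), Gimap4 was called lower (log2 ratio -0.92) and Gimap5 higher (0.63) in KO than in WT. In arterial-like cells the Gimap5 ratio was 2.59 (1.18 to 5.68), from 15 UMIs in each library, with level intervals that overlapped. Its log2 ratio of 1.37 became -0.056 at Leiden resolution 1.5, so the direction was not kept. In arterial-like cells 0 of 6 members were called, where 1.1% of genes were higher and 0.813% lower. Gimap1, Gimap8 and Gimap9 had intervals that included 1 in gCap-like cells, with ratios of 0.976, 0.956 and 0.836.

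**Figure D3:**
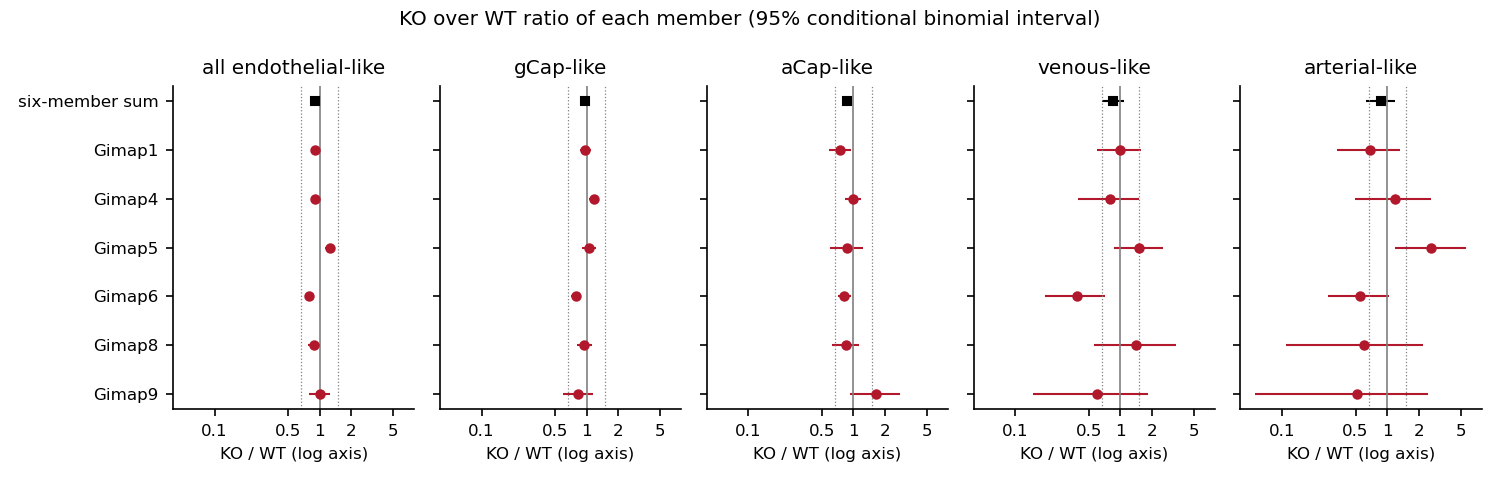
Ratio of each member's level in KO over WT (log axis, 95% conditional binomial intervals) in 5 sets of cells; the solid line is 1 and the dotted lines are 1.5-fold either way. Gimap6 lies left of 1 in every panel, from 0.822 in aCap-like to 0.390 in venous-like cells, and the black square of the six-member sum lies between 0.856 and 0.958.

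In the KO-only cluster the summed Gimap level was close to that of the other KO endothelial-like cells pooled, while its Gimap4 level was low. The sum was 1152 CPM (1072 to 1237) in the KO-only cluster and 1205 CPM (1158 to 1253) in the other KO endothelial-like cells, a ratio of 0.957 (0.881 to 1.04). Against KO gCap-like cells the ratio of the sum was 0.854 (0.783 to 0.931), with level intervals apart but short of 1.5-fold. Against KO aCap-like cells it was 0.983 (0.882 to 1.10). Within cells split by sex-linked transcripts the sum differed in opposite directions, as given below. Gimap4 stood at 118 CPM (93.0 to 147) in the cluster, from 78 UMIs, and at 297 CPM (274 to 321) in the other KO endothelial-like cells, from 605 UMIs. The ratio was 0.396 (0.309 to 0.503), and the intervals of the levels were far apart. It was the 1 member called of 6, where 8% of genes were lower and 7.54% higher, so the count is near the background. The Gimap genes had been left out of the clustering, but a cluster set against the rest of its library remains a description.

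The same gap appeared against each capillary class and in the makeup of the family. Gimap4 was at 0.355 (0.275 to 0.454) of its level in KO gCap-like cells and at 0.368 (0.277 to 0.486) of that in KO aCap-like cells. Against gCap-like cells it was the 1 call of 6, where 7.66% of genes were lower and 7.66% higher. Against aCap-like cells 1 member was lower and 1, Gimap5, higher, where 7.91% of genes were lower and 10.1% higher. Gimap4 gave 10.2% (8.15 to 12.6) of the Gimap UMIs in the KO-only cluster, against 24.5% (22.5 to 26.7) in KO gCap-like and 27.2% (23.7 to 31.0) in KO aCap-like cells. Thinned to 1500 UMIs, 11.3% (6.16 to 18.6) of cells in the cluster had a Gimap4 UMI, against 36.4% (30.3 to 42.8) of KO gCap-like cells and 0 of 543 KO AT2-like cells, which allows up to 0.552% of cells with a UMI at this thinned depth and does not limit the cells that hold the transcript; 3, 13 and 53 cells were left out as shallower. Unthinned, the shares were 44.9%, 66.3% and 2.85%. Gimap4 in the cluster lay near the venous-like and arterial-like levels of KO, 105 CPM and 97.4 CPM, with overlapping intervals.

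Over all cells of the KO-only cluster, Gimap5 and Gimap6 had ratios above 1, short of the rule. Gimap5 stood at 223 CPM (189 to 262) in the cluster and 157 CPM (140 to 175) in the other KO endothelial-like cells, a ratio of 1.42 (1.16 to 1.73). With cells thinned this difference was gone (log2 ratio -0.09), and with the stricter cell filter it was called (0.85). Gimap6 stood at 424 CPM (376 to 476) in the cluster and 350 CPM (325 to 377) outside it, a ratio of 1.21 (1.05 to 1.39). Gimap1, Gimap8 and Gimap9 had ratios of 0.940, 0.907 and 1.35, with intervals that included 1.

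Sex-linked transcripts moved with the cluster, and the ratios within each kind of cell were not alike. In cells with Y-linked UMIs and no Xist UMIs, Gimap4 was at 98.5 CPM (63.1 to 147) in 45 cells of the cluster and 294 CPM (265 to 326) in 225 cells outside it. In cells with Xist UMIs and no Y-linked UMIs it was at 139 CPM (103 to 185) in 57 cells of the cluster and 171 CPM (106 to 262) in 20 cells outside it, where the intervals overlapped and the call was lost (log2 ratio -0.30). Gimap8 was at 57.4 CPM (31.4 to 96.4) in the cluster and 140 CPM (120 to 163) outside it in the Y-linked cells, which passed the rule, and at 145 CPM (108 to 191) and 73.4 CPM (33.6 to 139) in the Xist cells, which did not. Gimap5 in the Xist cells was at 261 CPM (210 to 321) in the cluster and 89.7 CPM (44.8 to 161), from 11 UMIs, outside it, which passed the rule. In the Y-linked cells Gimap5 was at 197 CPM (145 to 261) in the cluster and 166 CPM (144 to 190) outside it, where the intervals overlapped. Gimap6 was at 461 CPM (392 to 538) in the cluster and 261 CPM (179 to 368) outside it in the Xist cells, which passed the rule, but at 341 CPM (271 to 422) and 368 CPM (335 to 403) in the Y-linked cells, where the log2 ratio was -0.11. The summed level was 960.2 CPM (841 to 1091) in the cluster and 1246 CPM (1185 to 1310) outside it in the Y-linked cells, but 1302 CPM (1184 to 1428) and 750.4 CPM (605 to 920.3) in the Xist cells, a difference that passed the rule in the opposite direction. The 20 Xist cells outside the cluster gave 92 Gimap UMIs in all. Of these cells, 6 were gCap-like, with a sum of 1807 CPM (1219 to 2580), whose interval overlapped that of the cluster. A further 10 were aCap-like, at 718 CPM (491 to 1013). Of the 225 Y-linked cells outside the cluster, 146 were gCap-like, at 1352 CPM, and 53 aCap-like, at 1288 CPM. The outside cells thus had a different class makeup in each kind of cell. The parts of class makeup and of the animals' sex in these differences were not tested.

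**Figure D4:**
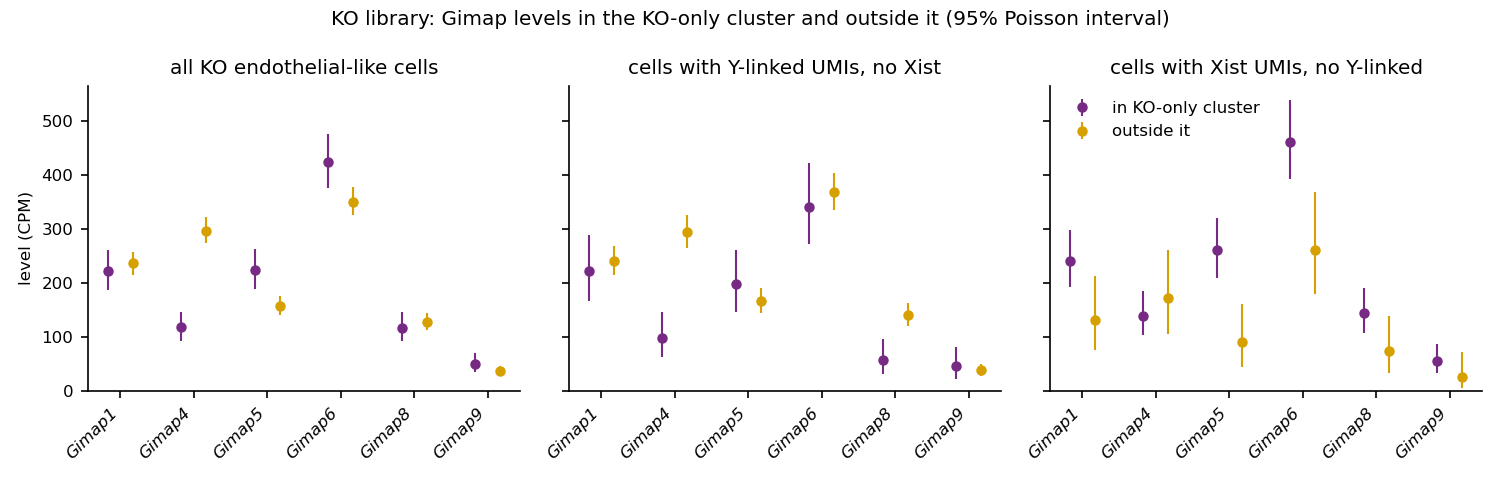
Level of each member (CPM, 95% Poisson intervals) in the KO-only cluster (purple) and in the other endothelial-like cells of the KO library (yellow), in all cells, in cells with Y-linked UMIs alone and in cells with Xist UMIs alone. Gimap4 is lower in the cluster in the first 2 panels, 118 against 297 CPM and 98.5 against 294 CPM, and its intervals overlap in the third.

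Genes of processes tied to GIMAP proteins were counted beside the members. Of 10 genes of the ATG8 family and of autophagy adaptors, among them the Gimap6 partner Gabarapl2, 0 were called between KO and WT in all endothelial-like, gCap-like or aCap-like cells, with a median log2 ratio of -0.03 in gCap-like cells, beside -0.03 over all genes. In the KO-only cluster 1 of 10 was higher than in the other KO endothelial-like cells, Sqstm1 (the adaptor p62), at 199 CPM against 100.1 CPM, where 7.54% of all genes were higher, so the count is near the background. The BCL-2 family, which governs cell death and has members reported to bind mouse GIMAP proteins, had 10 of 12 genes at 10 CPM or more. In all endothelial-like cells 3 of these 10 were higher in KO than in WT and 0 lower, where 3.86% of all genes were higher and 5.11% lower. They were Bcl2 (107 CPM in KO against 36.9 CPM in WT), Bbc3 (47.4 CPM against 29.9 CPM) and Pmaip1 (21.1 CPM against 11.1 CPM). Without the KO-only cluster 2 of 9 genes were higher in KO and 0 lower, where 2.3% of all genes were higher and 3.55% lower. Pmaip1 stood at 7.36 CPM in those KO cells, below its level in WT. Bcl2 was also higher in KO in gCap-like cells (66.4 CPM against 32.8 CPM in WT) and aCap-like cells (93.2 CPM against 48.7 CPM in WT), and Bcl2l11 was lower in KO gCap-like cells (44.5 CPM against 69.2 CPM in WT). Of the family, 1 of 9 was higher and 1 lower in gCap-like cells, where 1.72% of all genes were higher and 2.96% lower, and 1 of 10 was higher in aCap-like cells, where 1.98% were. In the KO-only cluster 5 of these 10 were higher and 0 lower than in the other KO endothelial-like cells, where 7.54% of all genes were higher and 8% lower, with a median log2 ratio of 0.47 beside -0.05 over all genes. The 5 were Bcl2 (214 CPM against 72.1 CPM), Mcl1 (644 CPM against 351 CPM), Bcl2l1 (272 CPM against 158 CPM), Bcl2l11 (70.9 CPM against 35.8 CPM) and Pmaip1 (63.4 CPM against 7.36 CPM). The first 3 encode proteins that protect cells and the last 2 encode proteins that promote death. Unlike the members, listed genes were left out of the clustering only if they differed between libraries. They could thus shape the KO-only cluster, and their counts in it are a description.

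Interferon-inducible GTPases, the GBP and IRG proteins that form another family of immune GTPases, had 11 of 13 genes at 10 CPM or more in gCap-like cells. Of these 2 were lower and 0 higher in KO, where 2.96% of all genes were lower and 1.72% higher, with a median log2 ratio of -0.29 beside -0.03 over all genes. Iigp1 stood at 160 CPM in KO and 248 CPM in WT, and Igtp at 24.3 CPM in KO and 42.7 CPM in WT. In aCap-like cells 0 of 10 were called, with a median log2 ratio of -0.29 beside -0.07 over all genes. Pan-endothelial genes, 15 of 15 at 10 CPM or more, had 0 calls in gCap-like cells, so that neither they nor the members passed the rule there. In all endothelial-like cells 1 of 15, Robo4, was higher in KO (233 CPM against 139 CPM) and 1, Kdr, lower (680 CPM against 1227 CPM). Over all genes 3.86% were higher and 5.11% lower there. In aCap-like, arterial-like and venous-like cells 1 each was higher, where 1.98%, 1.1% and 1.34% of all genes were. In venous-like cells 2 were lower, where 1.04% of all genes were. In the KO-only cluster 7 of 15 were lower and 2 higher than in the other KO endothelial-like cells, where 8% of all genes were lower and 7.54% higher. Tek stood at 202 CPM against 650.0 CPM and Eng at 513 CPM against 1306 CPM, while Pecam1 stood at 2347 CPM against 1437 CPM. These 3 genes are also markers used in naming clusters, so this count too is a description.

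In single cells 4 or more members were rarely seen together, at a depth that detects few molecules of each. Thinned to 1500 UMIs, 79.7% of 474 KO and 81.7% of 1424 WT endothelial-like cells had a UMI of at least 1 member, with 53 KO and 120 WT cells left out. At least 2 members were seen in 41.1% of KO and 47.3% of WT cells, at least 4 in 1.90% and 2.95%, and all 6 in 0 of either, which by a limit of 3 counts allows up to 0.633% of KO and 0.211% of WT cells with all 6 seen at this depth, and does not limit the cells that express all 6. Gimap9 alone was seen in 6.54% of KO and 5.13% of WT cells at this depth. Unthinned, 93.0% of KO and 94.8% of WT endothelial-like cells had a UMI of at least 1 member, against 12.1% of KO and 23.5% of WT AT2-like cells, which should lack them. Over the 15 pairs of members, correlations between cells had medians of -0.00 in KO and 0.01 in WT and lay between -0.06 and 0.08, which in counts this sparse is no finding.

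**Figure D5:**
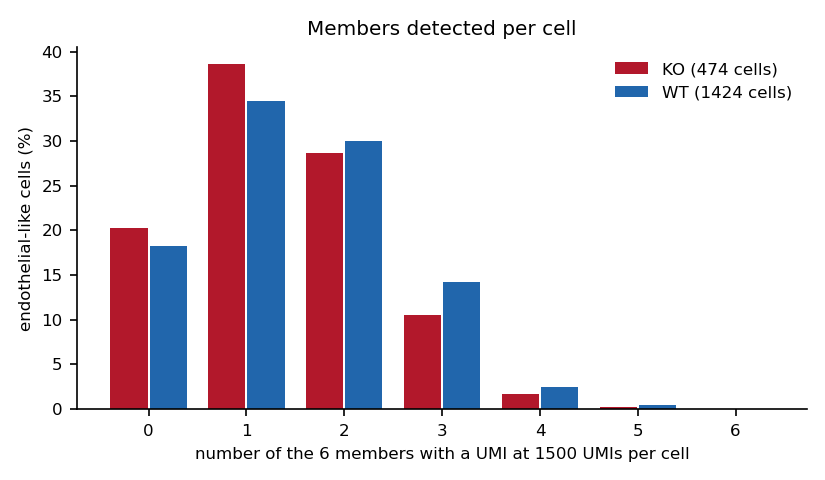
Share of endothelial-like cells (%) by how many of the 6 members had a UMI after each cell was thinned to 1500 UMIs, in 474 KO cells (red) and 1424 WT cells (blue). Most cells show 1 or 2 members, and no cell of either library shows all 6.

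Across cell classes the members followed genes of the endothelium as a whole. Over 14 profiles of a class in a library with at least 50 cells, the genes most like the six-member sum among 6323 were Gata2 (r = 0.996), an endothelial and blood transcription factor, Rasip1 (0.995), a Ras-binding protein of vessel lumens, Pecam1 (0.993), Cdh5 (0.993) and S1pr1 (0.991), a receptor for sphingosine-1-phosphate. These correlations describe the split of 7 endothelial from 7 other profiles, and the profiles share libraries and free RNA. The gene most like each member was Nova2 for Gimap1 (0.993), Caskin2 for Gimap4 (0.993), Inpp5d for Gimap5 (0.989), Shank3 for Gimap6 (0.990), Mid2 for Gimap8 (0.989) and Ctla2a for Gimap9 (0.990). Within the 7 endothelial profiles alone, the members were less alike: r was 0.80 between Gimap1 and Gimap5, 0.86 between Gimap6 and Gimap8 and 0.75 between Gimap4 and Gimap6, but 0.15 between Gimap4 and Gimap5 and -0.41 between Gimap4 and Gimap9. These are descriptions over few points.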

How the data were processed

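Single-cell RNA-seq libraries (10x Genomics 3' v3) of 1 KO and 1 WT lung sample were analysed from the deposited matrices, which contain unnormalized UMI counts; per the submitters' processing notes the authors used Cell Ranger 3.0.1 and mm10. Whether animals were pooled is not stated in the labels. In the KO library 77 endothelial-like cells had Xist UMIs alone, 270 had Y-linked UMIs alone and 5 had both, so it held cells of both sexes. Barcodes were kept from 500 detected genes upward if no more than 10% of UMIs were mitochondrial (1326 KO, 2745 WT), and 12 KO and 37 WT doublets called by Scrublet in scanpy 1.11.5 were removed.

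Cells were clustered on 30 principal components, 20 neighbours and Leiden resolution 1 (leidenalg 0.10.2), in 2 steps. Genes differing between libraries within classes of the first step (669 of 2000 variable genes) and all Gimap genes were left out, which gave 19 clusters. Clusters were named from 169 marker genes in the files, by the class with at least 3 markers, each at least 2-fold higher and in at least 10% of cells, and with the most markers among the top 10 genes. That last rule replaced the largest number of markers after the first clusters had been seen. The KO-only cluster is the endothelial cluster with at least 90% KO cells and 50 cells. Endothelial-like cells in the gCap-like class came from 2 clusters, held by both libraries.

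Within each library, the UMIs of a class were added up and divided by the class total (CPM), with exact Poisson intervals for levels, exact conditional binomial intervals for ratios and exact Clopper-Pearson intervals for shares, all at 95%. These cover counting error only. A gene was tested at a mean of at least 10 CPM and called at 1.5-fold or more with level intervals that did not overlap. On simulated counts with 200 genes changed 3-fold, the rule was checked to recover them. That check does not speak for smaller changes or for differences between animals. A limit for 0 is 3 counts. Likeness is Pearson's r of log2(CPM + 10) among genes with at least 50 CPM in 1 profile. Gene coordinates are from GENCODE M21, and sequences from RefSeq (GRCm38.p6), in which all 6 members were found. The named genes are the members, the genes most like them by r, and listed genes at 10 CPM or more. Members and lists were chosen with earlier results of these data known. Alternatives covered cell filters, doublets, clustering, depth, the CPM denominator, leukocyte RNA, sex-linked transcripts and, added after seeing the data, the naming rule, the shallow aCap-like cluster and cells with Y-linked UMIs alone.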

Additional observations from a re-analysis of the deposited data

How the results depend on the processing

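Over 109 results, 1112 alternative values were computed: 1005 stayed within the main interval or within 1.5 times the main share, 107 moved and 0 called values changed sign. No replicate could be left out and no test could be run, since each group was 1 library. No paired analysis was possible because each group held a single sample. For the summed Gimap level in gCap-like cells, KO over WT, the log2 ratio of -0.06 was -0.14 at Leiden resolution 0.5, and 6 KO cells were too few for a value among Xist cells. In aCap-like cells -0.20 became -0.52 with cells thinned and -0.92 in cells with Xist UMIs alone. It was -0.10 with the stricter cell filter and with doublets kept, and -0.13 with a filter of 200 genes and 20% mitochondrial UMIs and at Leiden resolution 0.5. Without the shallow aCap-like cluster it was -0.12. The intervals of these smaller values included 0. In the remaining alternatives it lay between -0.20 and -0.14, with intervals below 0. For the KO-only cluster over the other KO endothelial-like cells, -0.064 became 0.057 under a looser cell filter of 200 genes and 20% mitochondrial UMIs, 0.79 in cells with Xist UMIs alone and -0.38 in cells with Y-linked UMIs alone; at Leiden resolution 0.5 no such cluster formed. For endothelial-like over non-endothelial cells, 7.02 in KO became 7.50 with the stricter cell filter, 6.46 with doublets kept and 6.48 thinned, and 5.91 in WT became 5.60 with doublets kept, 5.20 thinned and 6.08 in cells with Xist UMIs alone. The causes were not tested. Thinned sums rest on 1500 UMIs per cell, so single members then had few UMIs. Gimap6, KO over WT, stayed below 0 on the log2 scale in every alternative in gCap-like cells (-0.39 to -0.26), aCap-like cells (-0.63 to -0.15) and all endothelial-like cells (-0.42 to -0.21). Gimap4 in the KO-only cluster over KO gCap-like cells kept its call in all 10 alternatives that gave a value (-2.11 to -1.31). Cells with Xist UMIs alone gave no value there. Against the other KO endothelial-like cells Gimap4 kept its call in 10 of 11 alternatives and lost it in cells with Xist UMIs alone (-0.30). A minimum of 50 CPM instead of 10 CPM changed the share of genes called by less than 1.5 times in the 4 comparisons where it was tried, by most in the KO-only cluster (23.3% instead of 15.5%).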
